A study of Eucalyptus urophylla with 24 samples.

Results

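A run of 10 genes on chromosome 11, of which 6 are described as MADS-box genes of the AGL42 or SOC1 type, carried reads in every diploid library and almost none in the triploid libraries. The genes are *Eucgr.K00191*, *Eucgr.K00192*, *Eucgr.K00193*, *Eucgr.K00194*, *Eucgr.K00199*, *Eucgr.K00200*, *Eucgr.K00202*, *Eucgr.K00203*, *Eucgr.K00204* and *Eucgr.K00207*, written below without the prefix. They are 10 of 26033 genes in the expression table. They were chosen by position and selected on their measured FPKM, which was above 0 in every diploid group and near 0 in the triploid, so that difference is described here without a test.

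RNA was sequenced from diploid and triploid *Eucalyptus urophylla* at 4 stages, the terminal bud and the young, the mature and the senescent leaf, with 3 libraries for each of 8 groups, 24 in all. Young leaves are named juvenile leaves in the library labels. The triploid was obtained by sexual polyploidization. All diploid libraries carry one plant code and all triploid libraries another, so ploidy cannot be told apart from any other difference between the plants. The methods give a number of clones for the chlorophyll measurement and not for the RNA, and neither they nor the labels say whether the 3 libraries of a group came from separate trees. Each p-value thus reflects only how far these libraries vary, which may be technical variation.

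MADS-box proteins are transcription factors that bind DNA as dimers and larger complexes and control the time of flowering and the identity of floral organs. In *Arabidopsis*, *SOC1* collects signals from day length, cold and age and promotes flowering. Its close relatives *AGL42*, *AGL71* and *AGL72* also promote flowering. *AGL42*, also known as *FOREVER YOUNG FLOWER*, delays the senescence and abscission of floral organs when overexpressed. Tandem copies of MADS-box genes of this kind are a known feature of the eucalypt genome.

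The genes span 261.3 kb of chromosome 11, from position 1313410 to 1574675 in the coordinates of the *E. grandis* gene models. All 10 lie on the minus strand, and each covers 7378 to 11543 bp from its first to its last annotated base, introns included. The annotation describes 5 of them as MADS-box protein AGL42 (*K00191*, *K00192*, *K00194*, *K00202* and *K00204*) and *K00207* as SOC1-like. The other 4 (*K00193*, *K00199*, *K00200* and *K00203*) are described only as hypothetical proteins. All 10 nevertheless carry the same 13 gene ontology terms. These include floral organ senescence, a term held by 15 genes of the table, abscission, held by 17, and leaf senescence, held by 101. Another 6 genes of the table start inside the same interval and are not among the 10. No sequence was compared between the copies here, and reads shared between related copies could have been assigned to either, so differences in level between the 10 genes are uncertain.

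The total count per library was 38395755 to 64400745, with a median of 56603217. FPKM (fragments scaled by transcript length and by the mapped reads of the library) was available for all 24 libraries and read counts for 22, because 1 of the 3 diploid senescent leaf libraries had a matching column of counts. Over all genes, 3 diploid libraries lay farther from their groups than the rest, library 3 of the terminal buds and libraries 1 and 3 of the young leaves, with an SD of the log2 deviation of 0.320, 0.251 and 0.237 against 0.137 to 0.223 in the other 21. The tissue labels were checked against marker genes. The summed level of 9 senescence genes was 28281 to 31902 FPKM in diploid senescent leaves and 5993 to 6265 FPKM in triploid senescent leaves, against at most 1533 FPKM at any other stage. Of the senescent leaf sums, 1 gene gave 27042 to 30688 FPKM in the diploid and 5197 to 5480 FPKM in the triploid. Only 4 of the 9 genes had a mean of at least 0.5 FPKM. From mature to senescent leaves 3 of them rose and 1 fell in both ploidies. A B-type cyclin of dividing cells lay at 1.47 to 7.33 FPKM in terminal buds and young leaves and at 0 to 0.136 FPKM in mature and senescent leaves. Of 3 floral organ genes, a *DEFICIENS* homolog gave nearly all of the sum, which was 58.4 to 59.3 FPKM in diploid buds and 149 to 162 FPKM in triploid buds. In young leaves the sum was 59.95 to 94.38 FPKM in the diploid and 49.8 to 55.1 FPKM in the triploid. In the diploid it thus did not mark buds above young leaves. The summed level of 17 genes of chlorophyll-binding proteins and the small subunit of Rubisco was 20982 to 26338 FPKM in mature and 2732 to 4872 FPKM in senescent leaves. The part of these differences in the results below was not tested.

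In the diploid, *K00207* had the highest level of the 10, with a mean of 25.4 FPKM over 12 libraries. *K00202* and *K00204* followed at 16.9 and 16.2 FPKM, *K00192* at 13.1 FPKM and *K00203* at 9.23 FPKM. The remaining genes were *K00200* (5.24 FPKM), *K00193* (4.37 FPKM), *K00194* (3.88 FPKM), *K00199* (3.86 FPKM) and *K00191* (2.66 FPKM). The levels thus covered a wide range . *K00207* stood at the 82.4th percentile of all genes in the diploid and *K00191* at the 43.5th. Over 12 libraries the ranges of *K00202* and *K00204* overlapped, with 10.7 to 21.7 and 11.6 to 18.9 FPKM. Those of *K00193*, *K00194* and *K00199* all fell within 1.84 and 6.79 FPKM. These ranges pool 4 stages. In young leaves *K00202* (19.6 to 21.6 FPKM) lay above *K00204* (16.5 to 17.7 FPKM), and they overlapped at the other stages. *K00193* lay above *K00194* in buds (4.55 to 5.58 against 1.96 to 3.32 FPKM). In young leaves it lay below (3.64 to 4.08 against 4.42 to 4.88 FPKM). Differences between genes were not tested. Every one of the 120 diploid values of the 10 genes was above 0, and the lowest was 1.503 FPKM (*K00191*, mature leaf library 2).

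In the triploid, 8 of the 10 genes had no read in any of the 12 libraries. *K00204* had 6 reads, all in young leaf library 1. *K00207* had 20 reads, of which 4 fell in terminal bud library 3, 10 in young leaf library 1 and 6 in young leaf library 2. Of 120 triploid values, 4 were above 0, and the highest was 0.119 FPKM. In all, 26 reads were assigned to the 10 genes in 12 triploid libraries and 88016 in 10 diploid libraries. No triploid library of mature or senescent leaves held a read of any of the 10. In bulk tissue, fewer cells that express a gene and less RNA per cell cannot be told apart.

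A count of 0 allows up to 3 reads per library, or 0.0499 to 0.0623 CPM (counts scaled to the library's total) as the mean of a stage. Against that limit, the 8 genes with no read were at least 39.7-fold (*K00191*) to at least 519-fold (*K00202*) lower in the triploid over all stages. For the other 2 genes the ratio was taken from the reads pooled over the libraries of a ploidy, at equal depth. The limit above instead allows up to 3 reads in each library. The 8 limits and these 2 ratios thus cannot be ranked against each other. It was 1213 for *K00207* (95% counting interval 785 to 1987), with 23321 diploid and 20 triploid reads, and 2386 for *K00204* (1096 to 6504), with 13762 and 6 reads. These limits and intervals cover counting error only, and for senescent leaves they rest on 1 diploid library.

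**Figure D1:**
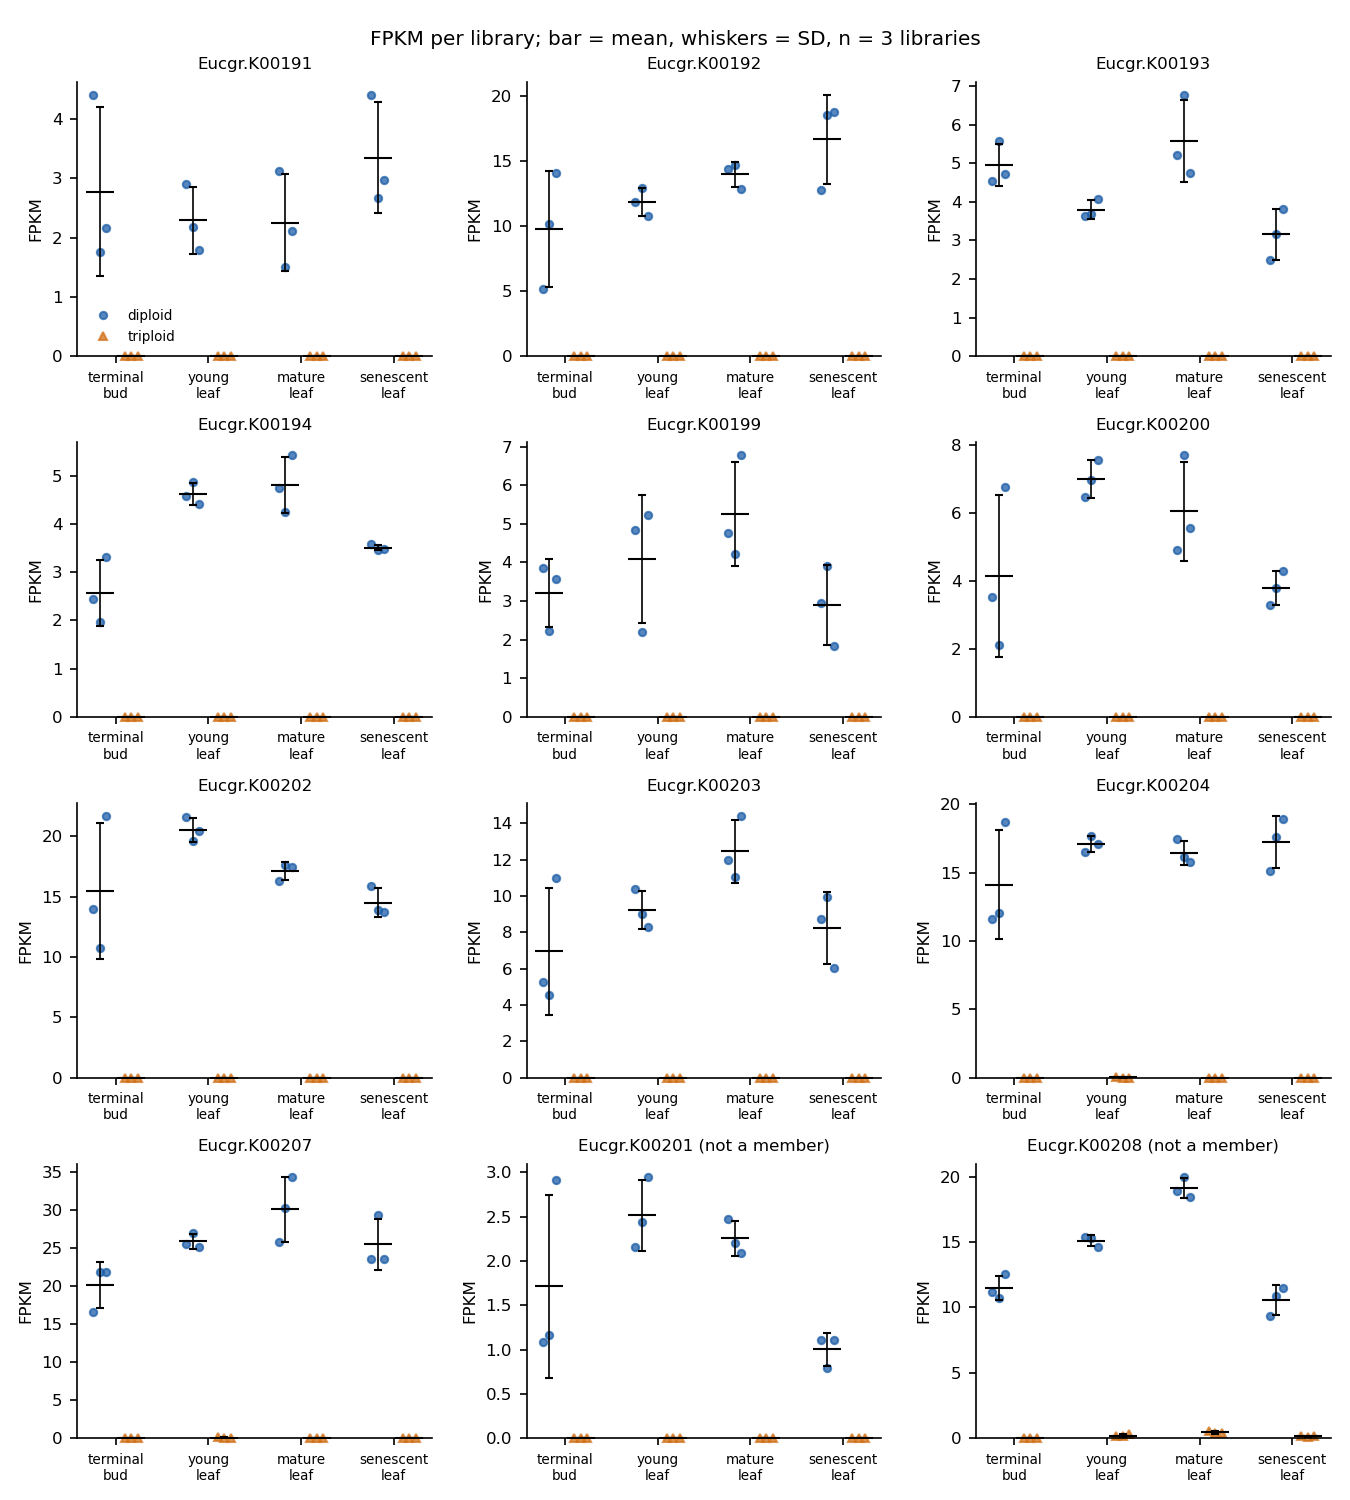
FPKM of the 10 genes and of 2 neighbours (*K00201* and *K00208*) in each of 24 libraries, by stage, with diploid libraries as circles and triploid libraries as triangles; bars are means and whiskers SD of 3 libraries. Every diploid value of the 10 genes lies above the triploid values of the same gene, which are 0 in 8 of them and at most 0.119 FPKM in *K00204* and *K00207*.

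Of the 5 genes of the table on each side, 6 were expressed at over 1 FPKM in both ploidies as the mean of 12 libraries. Upstream, *K00188*, a hypothetical protein, had a mean of 25.6 FPKM with diploid and 22.7 FPKM with triploid plants, and *K00186*, a WD repeat protein, 6.15 and 6.52 FPKM. Downstream, *K00210* lay at 10.3 and 11.1 FPKM, *K00211* at 43.3 and 45.7 FPKM, and *K00212*, an L-idonate 5-dehydrogenase, at 15.96 and 17.58 FPKM. The upstream phosphoglucomutase gene *K00185* lay at 15.4 and 23.5 FPKM. By stage, the ploidies did differ in some of these genes. *K00212* had 19.8 FPKM in diploid and 10.5 FPKM in triploid buds (log2 difference −0.83, limma adjusted p = 5.6e-05), but 9.57 and 25.97 FPKM in senescent leaves (1.36, limma adjusted p = 4.3e-08). *K00185* had 6.63 and 2.61 FPKM in buds (−1.12, limma adjusted p = 4.1e-05), but 25.4 and 59.0 FPKM in mature leaves (1.20, limma adjusted p = 9e-06). None of the 6 was near absent in the triploid. *K00208*, the nearest gene downstream, was and is described below. *K00187* and *K00189* were near 0 in both ploidies, and *K00209* was low in both (0.60 and 0.73 FPKM).

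Among the 6 other genes inside the interval, *K00201* showed the same pattern as the 10. It is annotated as a hypothetical protein, and it had 0.791 to 2.95 FPKM in the 12 diploid libraries and no triploid read. *K00198*, annotated as a low-quality AGL42 model, had reads in only 1 diploid library (0.036 FPKM) and none in the triploid. *K00195*, *K00197*, *K00205* and *K00206* stayed below 1 FPKM in every library of both ploidies. *K00205* and *K00206* lie inside the span of *K00204* on the opposite strand. The methods name a stranded library kit, but do not say whether strand was used in counting. If it was not, reads of *K00205* and *K00206* could not be told apart from those of *K00204*. Each was at 0 in nearly every library, but *K00206* had 15 reads (0.590 FPKM) in triploid terminal bud library 2.

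*K00208*, the next gene after the interval (1584390 to 1596098, minus strand), is annotated as SOC1-like and was the gene outside the 10 whose profile over the 24 libraries was most like theirs (Pearson r = 0.993 of log2(FPKM + 1) with their mean, a description that mostly restates the gap between the ploidies). It had more reads in the triploid than any of the 10 genes. Its triploid values were 0, 0.02 and 0 FPKM at the bud stage, 0.16, 0.15 and 0.32 FPKM for young, 0.56, 0.41 and 0.40 FPKM for mature and 0.15, 0.14 and 0.14 FPKM for senescent leaves, against 9.31 to 19.98 FPKM in the diploid. The read counts behind the triploid values were 810 in 12 libraries. The groups did not overlap at any stage. The ratio of diploid to triploid CPM was 1466 at the bud stage (95% counting interval 711 to 3647), 69.8 for young (60.4 to 81.0), 41.8 for mature (38.2 to 45.8) and 78.1 for senescent leaves (65.4 to 93.9, with 1 diploid library).

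**Figure D2:**
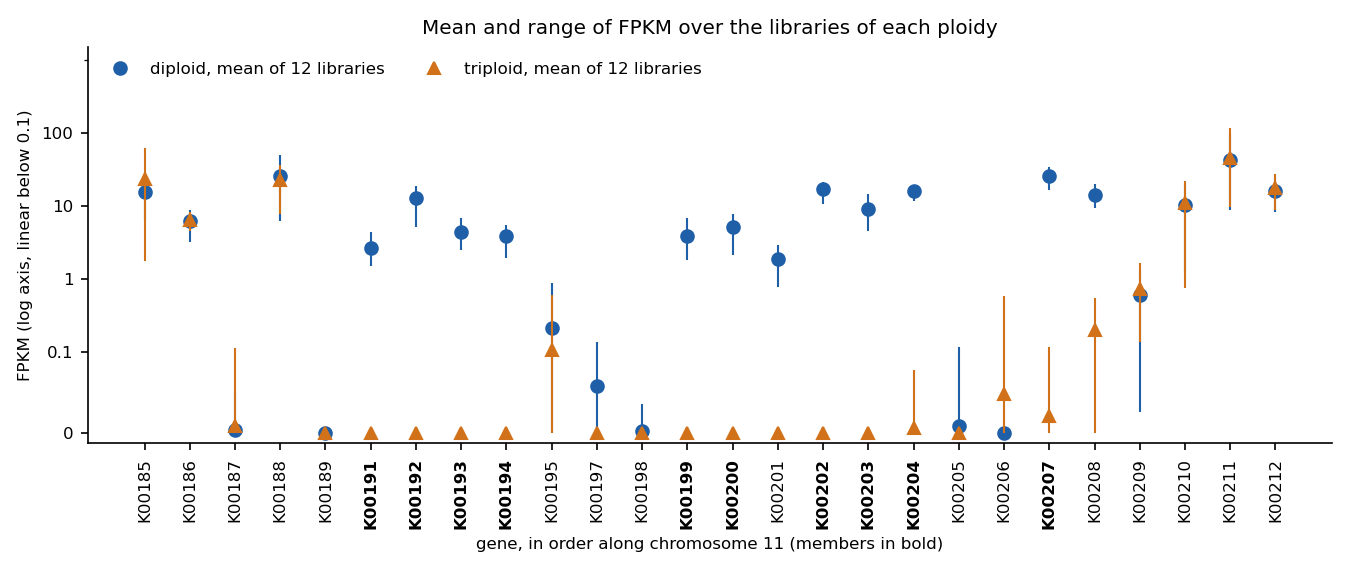
Mean FPKM (symbols) and the range over 12 libraries (lines) of 26 genes in their order along chromosome 11, for the diploid (circles) and the triploid (triangles), on a log axis that is linear below 0.1; the 10 genes are in bold. The 12-library means of *K00188* are 25.6 and 22.7 FPKM and those of *K00185* 15.4 and 23.5 FPKM, while the 10 genes, *K00201* and *K00208* are at or near 0 in the triploid; *K00195*, also between them, is low in both ploidies with overlapping ranges.

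How unusual such a pattern was can be read from the whole table. A gene was counted when its mean was at least 1 FPKM in each of the 4 diploid groups and its triploid mean was at most 10% of the diploid mean at each stage. Of 26033 genes 32 met this rule (0.123%), and they were 0.242% of the 13236 genes on at all 4 diploid stages. All 10 genes of the run were among them, as the choice of these genes fixes, together with *K00201* and *K00208*, and 1 more gene lay elsewhere on chromosome 11. Of the 32, 13 were at 0 in all triploid libraries, 8 of them from the run. With the ploidies exchanged, the rule found 0 genes among 13160 that were on at all 4 triploid stages. No test stands behind that count of 0, since the rule uses thresholds on means alone.

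**Figure D3:**
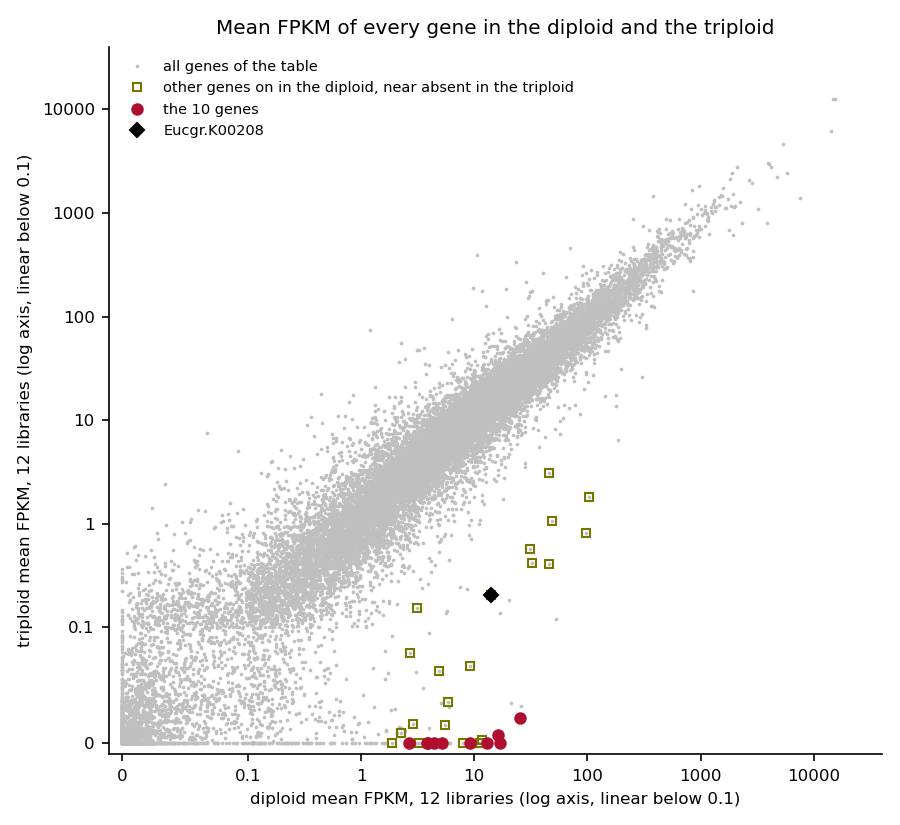
Mean FPKM of each of 26033 genes over 12 diploid (x) and 12 triploid libraries (y), on log axes that are linear below 0.1. The 10 genes (filled circles) lie at or near 0 on the triploid axis at diploid means of 2.66 to 25.4 FPKM, and the 22 other genes that met the rule (squares; *K00208* as a diamond) also lie at low triploid means.

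Within the diploid, the 10 genes did not share one time course. The mean was highest in mature leaves for 5 genes, in senescent leaves for 3 and in young leaves for 2, and it was lowest in terminal buds for 5, in senescent leaves for 4 and in mature leaves for 1. The summed level of the 10 was 84.1 ± 20.6 FPKM at the bud stage, 106 ± 1.75 for young, 114 ± 5.44 for mature and 98.8 ± 6.93 for senescent leaves (SD, n = 3 each). Within terminal buds, library 3 reached 108 FPKM and libraries 1 and 2 only 71.4 and 73.0 FPKM. In 7 of the 10 genes bud library 3 lay nearer to the young leaf mean than to the mean of the other bud libraries.

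Stages were compared with limma on log2(FPKM + 1) across 19174 genes, with Benjamini-Hochberg adjustment over all of them, and a change was called at an adjusted p under 0.05. All 10 genes passed the filter of a mean of at least 0.5 FPKM over 24 libraries, and did so through their diploid values. One limit applies to every call below. The triploid values are constant at 0 for 8 of the genes and nearly so for the other 2, and in a fit over all 24 libraries they lower the estimated spread, to between 0.706 and 0.730 of that among diploid libraries. The numbers of calls in a fit of the 12 diploid libraries alone are therefore given beside each count.

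From terminal buds to young leaves, 4 of the 10 genes rose and 1 fell, beside 33.4% of all tested genes that rose and 26.6% that fell. The median log2 change of the 10 was 0.35, and over all genes it was 0.07. *K00194*, an AGL42 gene, had 2.44, 1.96 and 3.32 FPKM in the bud libraries and 4.58, 4.88 and 4.42 FPKM in the young leaf libraries. The groups did not overlap. It rose by 0.67 ± 0.11 on the log2 scale (SE, limma adjusted p = 3.5e-05). It was the gene whose rise was called in all 9 other analyses of the data.

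*K00200*, a hypothetical protein, had 3.53, 2.12 and 6.76 FPKM in terminal buds and 6.46, 6.95 and 7.57 FPKM in young leaves. Bud library 3 fell inside the young leaf range and the other bud libraries far below it. The log2 change was 0.74 ± 0.20 (limma adjusted p = 0.0038). *K00202*, an AGL42 gene, went from 13.9, 10.7 and 21.7 to 21.6, 19.6 and 20.4 FPKM, so its bud library 3 was the highest of all 6. Its log2 change was 0.44 ± 0.15 (limma adjusted p = 0.014). *K00207*, the SOC1-like gene, had 16.6, 21.8 and 21.9 FPKM in buds and 25.5, 27.0 and 25.1 FPKM in young leaves, with no overlap (log2 change 0.36 ± 0.12, limma adjusted p = 0.014). *K00193* was the exception and fell by 0.31 ± 0.12 on the log2 scale (limma adjusted p = 0.033), from 4.55, 5.58 and 4.73 to 3.64, 3.69 and 4.08 FPKM.

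With the 12 diploid libraries alone, 3 of these rises were called (beside 27.9% of all genes that rose and 24% that fell) and the fall of *K00193* was not (adjusted p = 0.12). Without the 3 diploid libraries that lay apart, 7 genes rose and none fell. Without bud library 3 alone, 7 rose and 1 fell. Without bud library 1, 2 rose and 1 fell, and without bud library 2, 3 rose. edgeR on the read counts called the rise of *K00194* alone.

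From young to mature leaves, 1 of the 10 genes rose and none fell, beside 21.0% of all genes that rose and 55.6% that fell. *K00193* had 3.64, 3.69 and 4.08 FPKM in young leaves and 5.21, 6.79 and 4.74 FPKM in mature leaves. The groups did not overlap. The log2 change was 0.44 ± 0.12 (limma adjusted p = 0.0023), and the call was made in all 9 other analyses. The fit of the diploid libraries alone also called 1 rise, beside 19.9% of all genes that rose and 53.0% that fell. Without mature leaf library 1, 2 genes were called, and without the 3 diploid libraries that lay apart, 3.

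The result at this step rested on the scale. Over all tested genes the median log2 change was −0.47, and over the 10 genes it was 0.12. When each library was rescaled by its median ratio to the others, the median of all genes became −0.06, 6329 genes rose and 7096 fell, and 7 of the 10 genes rose. On the read counts edgeR called 4 rises and DESeq2 6. The sign of the change turned with the scale in 4 genes. *K00191* went from −0.03 to 0.35, *K00200* from −0.20 to 0.28 and *K00202* from −0.25 to 0.27, none of them called (limma adjusted p = 0.17, 0.19 and 0.07 after rescaling). *K00204* went from a log2 change of −0.05 (limma adjusted p = 0.73) to 0.47 after rescaling (limma adjusted p = 0.00059). Its levels were 16.51, 17.68 and 17.05 FPKM in young and 17.5, 16.1 and 15.8 FPKM in mature leaves, which overlapped.

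From mature to senescent leaves, 5 of the 10 genes fell and none rose, beside 32.4% of all genes that fell and 25.3% that rose. The median log2 change of the 10 was −0.29, and over all genes it was −0.08. *K00193* had 5.21, 6.79 and 4.74 FPKM in mature and 2.50, 3.16 and 3.83 FPKM in senescent leaves, without overlap (log2 change −0.66 ± 0.12, limma adjusted p = 6.5e-05). *K00199*, a hypothetical protein, went from 4.76, 4.23 and 6.77 to 2.95, 3.89 and 1.84 FPKM, also without overlap (−0.70 ± 0.21, limma adjusted p = 0.0081). *K00194* went from 4.76, 4.26 and 5.43 to 3.58, 3.47 and 3.49 FPKM, with tightly grouped senescent libraries (−0.36 ± 0.11, limma adjusted p = 0.0091). The groups did not overlap in any of these 3 genes. They were picked by their calls, and the share of all tested genes without overlap is not given here for any step.

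*K00203* (−0.56 ± 0.20, limma adjusted p = 0.019) and *K00200* (−0.54 ± 0.20, limma adjusted p = 0.026) were the other genes that fell. Their senescent values were 8.73, 9.95 and 6.05 FPKM and 3.29, 3.78 and 4.29 FPKM, all below the lowest mature leaf values of 11.02 and 4.91 FPKM. *K00191* and *K00192*, both AGL42 genes, had their highest means in senescent leaves, at 3.35 ± 0.93 and 16.7 ± 3.42 FPKM (SD, n = 3), and neither difference from mature leaves was called. These senescent groups overlapped the mature ones in both genes. With the diploid libraries alone, only *K00193* was called, beside 29.0% of all genes that fell and 22.6% that rose. Without mature leaf library 3, 2 genes fell, and without senescent leaf library 3, 3 genes. After median ratio rescaling 7 genes fell. edgeR and DESeq2 called none at this step (at an unadjusted p under 0.05, 0 and 2), with counts of 1 senescent library.

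Over the 4 diploid stages together, limma's F test found a difference in 8 of the 10 genes, beside 95.2% of all tested genes. *K00191* and *K00204* did not pass (limma adjusted p = 0.17 and 0.11). *K00204* varied least of the 10, with a coefficient of variation of 14.4% over 12 libraries, and *K00199* most, with 37.2%. With the diploid libraries alone, 5 of the 10 passed, beside 93.1% of all genes. The share of called genes among the 10 was below that of the table in both fits. After median ratio rescaling all 10 passed, beside 17959 of 19174 genes.

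The 10 genes also differed in how they moved together across the 12 diploid libraries. Over 45 pairs, Pearson's r of log2(FPKM + 1) had a median of 0.407 and ran from −0.587 to 0.899, with 31 pairs above 0 and 13 at 0.6 or more. These values are a description across libraries that share stage, depth and scale. The closest pair was *K00200* and *K00202* (r = 0.899), followed by *K00194* and *K00203* (0.831) and *K00192* and *K00204* (0.814). *K00200* and *K00202* are next to each other among the 10, and the genes of the other 2 pairs are not. *K00191* was negatively related to all of the other 9, most of all to *K00193* (r = −0.587), and *K00193* stayed between −0.587 and 0.203 with every other gene of the run.

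**Figure D4:**
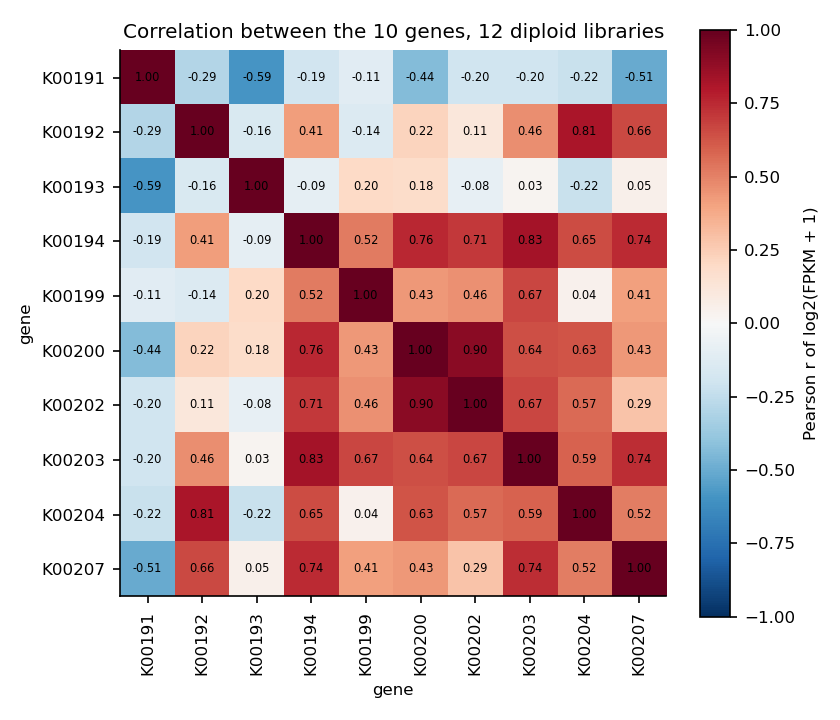
Pearson's r of log2(FPKM + 1) for each pair of the 10 genes over the 12 diploid libraries, in their order along the chromosome; red is positive and blue negative. *K00194*, *K00200*, *K00202* and *K00203* form a group with r of 0.641 to 0.899, and the row of *K00191* is negative throughout.

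Over the 12 diploid libraries, the gene outside the run most like the mean of the 10 was *Eucgr.L00153*, annotated as nuclear transcription factor Y subunit B-3 (r = 0.957). *Eucgr.J03184* (0.951), *Eucgr.E03909* (0.935), *Eucgr.B01216* (0.923) and *Eucgr.I00756* (0.922) followed, none with a named function. All 5 were present in the triploid too, with means of 22.55, 13.01, 10.54, 69.62 and 3.13 FPKM in the order given. These were the highest of 19164 correlations over 12 libraries and are given as a description.

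*K00208*, unlike most of the 10 genes, changed at each step between stages. In the diploid it rose from terminal buds (11.2, 10.7 and 12.5 FPKM) to young leaves (15.4, 15.3 and 14.6 FPKM) and again to mature leaves (18.91, 19.98 and 18.45 FPKM) and fell to 9.31, 10.9 and 11.5 FPKM in senescent leaves. None of these neighbouring stages overlapped. The log2 changes were 0.37, 0.32 and −0.80 (limma adjusted p = 0.0033, 0.006 and 3.6e-07). All were called with the diploid libraries alone. The rise from buds to young leaves was not called with a pseudocount of 0.1, edgeR or DESeq2. The rise to mature leaves was not called with that pseudocount either. The fall to senescent leaves was not called with edgeR (log2 change −0.61), which had counts of 1 diploid senescent library. The small triploid signal of *K00208* moved in the same directions, by 0.26, 0.27 and −0.35 on the scale of log2(FPKM + 1), which understates changes of such low values (limma adjusted p = 0.026, 0.02 and 0.0046).

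The wider SOC1-like group was taken from the annotation as all other genes described as SOC1, AGL42, AGL14, AGL19 or a near relative. It held 7 genes, of which 4 passed the filter: *Eucgr.E00516* and *Eucgr.A02846*, both described as SOC1, *Eucgr.D01939*, described as AGL19, and *K00208*. The triploid was lower for 3 of the 4 at each of the first 3 stages, *K00208* included. In senescent leaves 2 were lower and 1 higher. Beside these counts, 34.9%, 11.9%, 22.6% and 20% of all tested genes were lower in the triploid at the 4 stages from bud to senescent leaf, and 14.0%, 11.4%, 42.4% and 40.1% higher. After median ratio rescaling, 4103 genes were higher and 4702 lower at the bud stage, 5671 and 6602 at the mature and 5501 and 5970 at the senescent stage.

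*E00516*, the most abundant of them, was lower in triploid terminal buds, with 29.2, 33.3 and 33.6 FPKM against 81.6, 83.8 and 72.7 FPKM in the diploid. The log2 difference was −1.28 (limma adjusted p = 6.2e-11). It was −0.51 for young leaves (limma adjusted p = 9e-05) and −0.22 for mature leaves (limma adjusted p = 0.022). In senescent leaves the triploid had 39.0, 42.1 and 45.5 FPKM and the diploid 33.0, 34.0 and 35.9 FPKM, a log2 difference of 0.29 (limma adjusted p = 0.0045), but after median ratio rescaling this became −0.05 (limma adjusted p = 0.72). No such turn occurred at the other stages.

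*A02846* was lower in the triploid at every stage, by a log2 difference of −1.86, −1.56, −1.47 and −0.50 from bud to senescent leaf (limma adjusted p = 1e-10, 4.6e-09, 2.4e-09 and 0.0013). Its level ran from 8.51 to 10.4 FPKM in diploid buds to 0.33 to 0.50 FPKM in diploid senescent leaves, and from 1.65 to 2.07 FPKM in triploid buds to 0 in all 3 triploid senescent libraries. *D01939* was expressed at 23.1 to 47.2 FPKM in all 24 libraries, and its ploidy difference was not called at any stage (limma adjusted p = 0.35, 0.31, 0.18 and 0.093). *B00545*, *B01623* and *K00198* stayed below 1 FPKM.

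**Figure D5:**
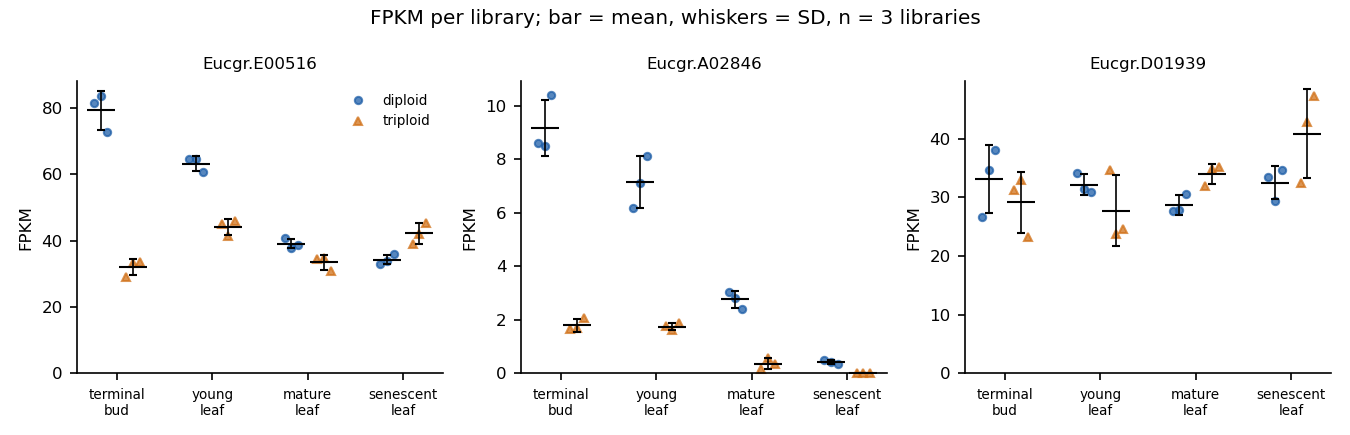
FPKM of *E00516* and *A02846* (both SOC1) and *D01939* (AGL19) in each library by stage, with diploid libraries as circles and triploid libraries as triangles; bars are means and whiskers SD of 3 libraries. The gap between the ploidies is widest in terminal buds for *E00516* (29.2 to 33.6 against 72.7 to 83.8 FPKM), and the triploid expressed all 3 genes except *A02846* in senescent leaves (0 in 3 libraries).

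In the diploid, the 10 genes made up 38.3% ± 5.55 of the summed FPKM of themselves and the 7 other SOC1-like genes at the bud stage, 47.4% ± 0.29 for young, 55.9% ± 1.20 for mature and 55.9% ± 2.46 for senescent leaves (SD, n = 3). In the triploid the share was at most 0.123% as the mean of a stage. The summed FPKM of the 7 other genes was 134 in diploid and 63.7 in triploid terminal buds, and 77.8 in diploid and 83.2 in triploid senescent leaves.

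Of 22 other MADS-box genes, 14 passed the filter. The triploid was higher for 3 and lower for 8 at the bud stage (3 and 6 after median ratio rescaling), for 1 and 3 at the young, for 0 and 5 at the mature (0 and 8) and for 2 and 5 at the senescent stage (1 and 7). *Eucgr.H04618*, described as FLOWERING LOCUS C, a repressor of flowering in *Arabidopsis*, was lower in the triploid at all 4 stages (log2 differences −0.68, −0.41, −1.07 and −0.70). *Eucgr.B00634*, described as a truncated CAULIFLOWER A, a relative of the floral meristem gene *APETALA1*, was lower by 2.24 in terminal buds (limma adjusted p = 1.9e-06) and by 1.65 in young leaves (limma adjusted p = 0.00024). The 3 genes that were higher in triploid buds were *Eucgr.H04617*, described as an AGL9 homolog (diploid 22.8 and triploid 53.2 FPKM, log2 difference 1.16, limma adjusted p = 0.00011), *Eucgr.I02059*, another truncated CAULIFLOWER A (15.5 and 30.6 FPKM, 0.94, limma adjusted p = 2.1e-05), and *Eucgr.I00556*, described as JOINTLESS (6.28 and 11.4 FPKM, 0.76, limma adjusted p = 0.00019).

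A list of 44 flowering regulators outside the MADS-box family gave 2 higher and 22 lower genes in triploid terminal buds (5 and 14 after median ratio rescaling). In young leaves 1 was higher and 10 were lower. Of all tested genes, 14.0% were higher and 34.9% lower in triploid buds, and 11.4% and 11.9% in young leaves. In mature leaves 23 of the list were higher and 9 lower, beside 42.4% and 22.6% of all tested genes. After median ratio rescaling the counts of the list were 16 and 15. In senescent leaves 24 were higher and 9 lower, and after rescaling 17 and 11. The counts at the 2 older stages thus depended on the scale, as did those of all genes (the median log2 ploidy difference over all tested genes was 0.20 in mature leaves and 0.17 in senescent leaves). *Eucgr.E03260* and *Eucgr.K01046*, described as squamosa promoter-binding proteins, a family that promotes the adult phase and flowering in *Arabidopsis*, were lower in the triploid at every stage. The log2 differences of *E03260* were −2.10, −1.63, −2.87 and −1.49 and those of *K01046* −0.94, −1.17, −1.37 and −1.69, from bud to senescent leaf (limma adjusted p of at most 1e-07). Other genes of the list had higher means in the triploid at some stages. *Eucgr.C01055* had 77.12 FPKM in diploid and 195.97 FPKM in triploid buds. *Eucgr.B00721* had 134.21 and 186.43 FPKM in mature leaves. *Eucgr.K02358* had 61.7 and 78.03 FPKM in mature and 65.15 and 84.59 FPKM in senescent leaves. These means are without median ratio rescaling. All the genes named are examples from the list.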

How the data were processed

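The submitters' processing notes name HISAT2 2.0, StringTie 1.3.0 and Bowtie 0.12.2. From these reads the authors deposited read counts and FPKM per gene in 1 table, against *E. grandis* gene models; the build named in the labels is one of the mouse genome and was not used. The labels and the methods differ on the library kit and instrument. FPKM values of 0.0001 were read as 0. Columns of the authors' own comparisons were not used, and 2 columns of counts that matched no library were left out.

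The main test was limma 3.58.1 (R 4.3.3) with a trend on log2(FPKM + 1), with 8 group means and 24 libraries, for genes whose mean reached 0.5 FPKM, with Benjamini-Hochberg adjustment (threshold 0.05). Fold changes are on that scale and understate changes of low genes. edgeR 4.0.16 and DESeq2 1.42.0 on the counts, a pseudocount of 0.1, no filter, median ratio rescaling, a replicate block, fits without single libraries or the 3 libraries that lay apart, and the diploid libraries alone were the alternatives. The scripts were tested on simulated data.

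The 10 genes, the gene lists and the tests were chosen with earlier results of these data known. The genes named are the 10, those in or within 5 genes of their interval, the other SOC1-like genes, the 5 most like them in each correlation, and genes among the 10 highest of the MADS-box and flowering lists.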

Additional observations from a re-analysis of the deposited data

Results flagged for a closer look

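The ploidy difference of *Eucgr.E00516* (SOC1) changed between stages, by the test of the difference itself in limma. Relative to terminal buds, the log2 difference between triploid and diploid was higher by 0.77 in young leaves (adjusted p = 5.8e-05), by 1.06 in mature leaves (adjusted p = 1.7e-07) and by 1.57 in senescent leaves (adjusted p = 4.2e-10). After median ratio rescaling these became 0.57, 0.51 and 1.05.

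The ploidy difference of *Eucgr.A02846* (SOC1) in senescent leaves was 1.36 above that in terminal buds (limma adjusted p = 1e-06). The direction turned on the read counts and with a pseudocount of 0.1, where the triploid senescent libraries are all at 0.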

How the results depend on the processing

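The 10 genes were chosen for presence in the diploid and near absence in the triploid. They met the rule for that pattern under every threshold, scale and left-out library tried, which the choice largely fixed. The number of genes in the table that met the rule was 25 to 48. For the stage tests, the 11 called changes of the 10 genes gave 165 values under the alternatives, of which 108 stayed called, 57 were no longer called and 0 changed sign. From terminal buds to young leaves, 5 of the 10 genes were called, against 2 with a pseudocount of 0.1, 1 with edgeR (with and without its filter), 1 with DESeq2 and 3 with the diploid libraries alone. From young to mature leaves, 1 was called, against 7 with median ratio rescaling, 4 with edgeR (with and without its filter), 6 with DESeq2 and 3 without the 3 libraries that lay apart. From mature to senescent leaves, 5 were called, against 2 with a pseudocount of 0.1, 0 with edgeR (with and without its filter), 0 with DESeq2 and 1 with the diploid libraries alone. Among the 4 stages, 8 differed, against 5 with a pseudocount of 0.1, 5 with edgeR (with and without its filter) and 5 with the diploid libraries alone. Median ratio rescaling gave 4, 7, 7 and 10 genes in these 4 tests. Leaving out 1 library in turn gave 3 to 8, 1 to 2, 2 to 7 and 7 to 9.

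Signs changed in these results, among others. The change of *K00204* from young to mature leaves was −0.05, and 0.47 with median ratio rescaling, 0.43 with edgeR (0.43 without its filter) and 0.52 with DESeq2. That of *K00194* was 0.04, and −0.021 without the 3 libraries that lay apart and −0.032 to 0.113 leaving out 1 library. The change of *K00192* from terminal buds to young leaves was 0.34, and −0.021 to 0.624 leaving out 1 library. Other uncalled changes also turned: from young to mature leaves, with median ratio rescaling, *K00191* (−0.03 to 0.35), *K00200* (−0.20 to 0.28) and *K00202* (−0.25 to 0.27), which turned with edgeR and DESeq2 too; from mature to senescent leaves *K00204* (0.06 to −0.043); and from terminal buds to young leaves, without the 3 libraries that lay apart, *K00199* (0.24 to −0.30). The ploidy difference of *E00516* in senescent leaves was 0.29, and −0.049 with median ratio rescaling, −0.20 with edgeR (−0.20 without its filter) and −0.14 with DESeq2. For *A02846*, the ploidy difference relative to terminal buds was 0.39 in mature leaves, and −0.41 with a pseudocount of 0.1, −0.056 with median ratio rescaling, −1.04 with edgeR (−1.04 without its filter) and −1.19 with DESeq2. In senescent leaves it was 1.36, and −0.070 with a pseudocount of 0.1, −6.71 with edgeR (−6.70 without its filter) and −5.95 with DESeq2. The 3 triploid senescent libraries are listed at 0 for this gene. The cause of these sign changes was not tested.

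Same-numbered libraries did not pair: in the diploid, 3 of 18 correlations of their deviations were over 0.1 (−0.312 to 0.317). With the replicate block, 5, 1, 6 and 9 genes were called in the 4 tests. Counts of diploid senescent leaves rested on 1 library, which limits edgeR and DESeq2 at that stage.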

Other observations

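Outside chromosome 11, the genes that met the rule of presence in the diploid and near absence in the triploid included another run of neighbours, on chromosome 8. *Eucgr.H04444*, *Eucgr.H04445*, *Eucgr.H04447* and *Eucgr.H04448*, all without a named function, had diploid means of 3.27, 9.14, 5.84 and 4.22 FPKM and triploid means of 0, 0.0666, 0.0356 and 0 FPKM. On chromosome 10, the neighbours *Eucgr.J01609* and *Eucgr.J01610* had diploid means of 7.94 and 11.7 FPKM and triploid means of 0 and 0.0022 FPKM. Chromosome 8 held 9 of the 32 genes, chromosome 10 held 4, chromosome 5 held 1, chromosome 11 held 13 and unplaced scaffolds held 5. These genes were chosen after their values were seen, and no test was made of them.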
